A study of Sus scrofa with 207 samples.

Results

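Lean pigs whose meat lost much or little fluid after slaughter were compared by muscle gene expression. An animal counted as lean at a fat area of at most 13.0 cm2, and its drip loss counted as low at 3.5% or less and as high at 7.0% or more. These bounds on the labelled traits, with no expression value, chose 32 of the 207 animals of the series: 13 lean pigs with low and 19 with high drip loss. A further 28 lean pigs lay between the bounds, which makes 60 lean animals in all. All were commercial crossbreds of the type Pix(DLxDE), with no treatment in any group, and their muscle was sampled when they were slaughtered, at about 110 kg on average. Fat area was read over the longissimus dorsi muscle at the rib. Drip loss was the percentage of weight that a piece of the same muscle, sampled 24 h after death, lost while it hung for 48 h at 4 °C. Expression was measured on an Affymetrix Porcine Genome Array, 1 per animal, so each animal was 1 replicate. The labels used here name the RNA source only as muscle, and give no sex, age, sire, farm, slaughter day or scan date for any animal.

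The low group had a median drip loss of 2.64% (1.81 to 3.32%) and the high group one of 8.05% (7.09 to 10.82%). The nearest lean animals left out stood at 3.63% and 6.95%. Fat area was 11.9 ± 1.13 cm2 (SD, n = 13) in the low and 11.4 ± 1.20 cm2 (SD, n = 19) in the high group. This difference was smaller than the SD of either group. A permutation test of the difference in means gave p = 0.242 (adjusted p = 0.452 over 7 such properties, two-sided). The fattest lean pig of these groups had 13.0 cm2, and the leanest animal counted as fatter had 13.1 cm2.

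After death, muscle goes on splitting glycogen without oxygen, and the acid that builds up lowers its pH while the carcass is still warm. Acid and heat alter the myofibrillar proteins and shrink the filament lattice, which pushes water out between the fibres, where it drains as drip. Known influences on this trait in pigs include the calcium release channel RYR1, whose mutation causes malignant hyperthermia, the kinase subunit PRKAG3, whose mutation raises muscle glycogen, and the calpains that degrade the cytoskeleton. Immediate early genes such as FOS and EGR1 code for short-lived factors that cells induce within minutes of a stimulus, including stress, exercise and injury.

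All values are log2 expression levels, in which 1 unit is a doubling and 4 is the lowest value in the file. Differences are the mean of high minus the mean of low, with their SE from the fit. How precise these differences are is limited by how many animals were measured. Genes that define skeletal muscle, such as ACTA1, CKM and TTN, had a mean per animal of 13.72 to 13.86 in the low and 13.74 to 13.86 in the high group. Array medians averaged 6.10 and 6.12. Arrays with a low correlation to the others numbered 2 in each group, and arrays lacking the spike-in control signal 0 in the low and 2 in the high group. The Y-linked gene EIF1AY lay in the upper of its 2 clusters in 3 of the 13 low and 4 of the 19 high animals.

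Arrays also differed in genes of plasma proteins that are made mainly in the liver. Over 23 measured genes of this kind, out of 26 listed after their values had been seen, the median array of the series had a mean of 5.67. A mean more than 2 units above that occurred in 16 of the 207 arrays, of which 1 was of a low, 1 of an intermediate and 3 of a high lean pig. This bound cuts through graded values, with a fatter pig at 7.60 just below it and another at 7.68 just above. Albumin, ALB, reached 14.75, 13.80 and 11.52 in those 3 high pigs and 10.33 in the low one, against medians of 4.61 in the low and 6.28 in the high group. Below the bound, ALB still reached 10.02 in a high and 9.55 in a low lean pig. Leaving out the arrays above the bound therefore does not remove all of this signal. The list mean ranged from 5.43 through a median of 5.57 to 7.88 in the low group, and from 5.44 through 5.74 to 11.81 in the high group. One of the 3 high pigs, with the list mean of 11.81, and the low pig were also on low-correlation arrays. Liver enzymes on the list were mixed. CYP2E1 reached 8.84 in the low and 11.60 in the high group, and CPS1 reached 5.73 and 9.43. TAT, an enzyme of tyrosine breakdown in liver, stayed between 4.20 and 5.24 in all 32 animals.

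**Figure D1:**
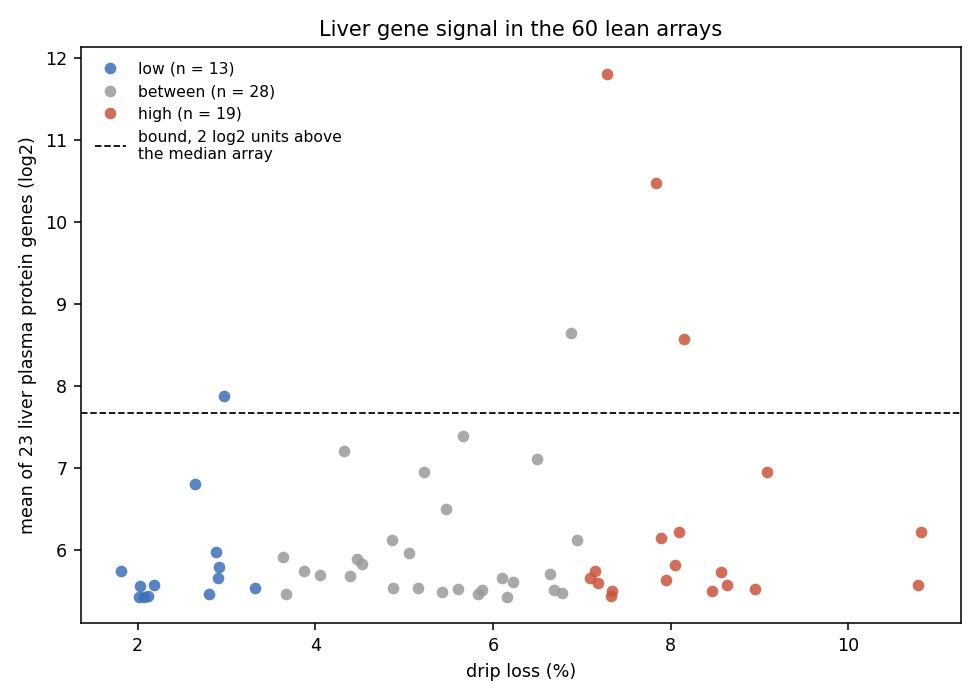
Mean log2 level of 23 liver plasma protein genes (vertical axis) against drip loss in percent (horizontal axis) for the 60 lean arrays, coloured by drip loss class. The dashed line marks 2 log2 units above the median array of the series, and 3 high, 1 intermediate and 1 low animal lie above it.

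These arrays set the largest differences of the whole contrast. Of the 5 probe sets with an absolute difference of 1 or more, 4 were for liver plasma proteins. ALB, which carries fatty acids in blood, differed by 1.38 ± 0.95, and GC, the vitamin D carrier, by 1.07 ± 0.71. FGB, a fibrinogen chain, differed by 1.04 ± 0.65, and HP, haptoglobin, which binds free haemoglobin, by 1.00 ± 0.70. All had an adjusted p of 0.977. Without the 4 arrays, the difference was 0.60 ± 0.61 for ALB, -0.05 ± 0.08 for GC, 0.29 ± 0.28 for FGB and 0.35 ± 0.37 for HP. The median over the list was 0.63 with these arrays and 0.07 without them. For other genes the contrast is given with all arrays. Without the 4 arrays, differences that moved by over 1.5 times included NFIL3 (-0.07 to -0.21), HIF1A (-0.08 to -0.16), PPARGC1A (-0.15 to -0.25), PDK4 (-0.080 to -0.135), MYH7 (-0.06 to -0.04) and ITIH5 (-0.08 to -0.02). The unadjusted p went from 0.0519 to 0.0381 for PRKAG3, from 0.0827 to 0.0399 for EGR1 and from 0.0448 to 0.0713 for IFNAR1. The lowest adjusted p among these genes without the arrays was 0.957.

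The main comparison asked which transcripts differed between lean pigs with high and with low drip loss. None of the 23935 probe sets passed an adjusted p of 0.05 in limma (0% called), and the lowest adjusted p was 0.410. An unadjusted p under 0.05 was found for 4.49% of the probe sets, with 2.73% higher and 1.76% lower at high drip loss. In no probe set did the values of the 2 groups fail to overlap. Without the 4 arrays with liver gene signal, again 0 passed, and 4.74% had an unadjusted p under 0.05. The SE of a difference had a median of 0.0849, and 95.7% of all intervals lay wholly within 0.5 of 0. What follows therefore describes levels and estimated differences, none of which passed the test over all probe sets.

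Immediate early genes stood lower with high drip loss. Of 45 listed genes 29 were measured, and 28 of these had a difference below 0, beside 39.9% of all 6765 genes. An unadjusted p under 0.05 was found for 7 of them, all lower, beside 1.61% of all genes. The median difference was -0.31, against 0.02 over all genes. Per animal, the mean over the list ran from 8.21 through a median of 8.97 to 9.87 in the low group and from 7.96 through 8.63 to 9.46 in the high group. The groups thus overlapped over most of their range. Without the 4 arrays with liver gene signal, 26 of 29 were below 0 and the median was -0.33. This list was drawn up with earlier results for these animals known, so its direction is no independent evidence.

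CYR61, a matrix protein induced by serum and stretch, had the lowest difference of all probe sets. Its levels were 8.78 at the lowest, 9.36 at the median and 10.85 at the highest in low animals, and 7.64, 8.73 and 10.04 in high animals. The difference was -0.88 ± 0.23, or 0.542 times the level (adjusted p = 0.624). High animals lay below the low median in 15 of 19 cases, but the ranges overlapped from 8.78 to 10.04. MYC, a growth-promoting transcription factor, ran from 7.29 through 8.16 to 9.68 in low and from 6.18 through 7.42 to 9.17 in high animals. Its difference was -0.71 ± 0.22 (adjusted p = 0.977), with 16 of 19 high animals below the low median. PPP1R15A, which lets translation resume after stress, went from 7.71 through 8.71 to 9.67 in low animals. In high animals it went from 7.02 through 7.91 to 9.15, a difference of -0.65 ± 0.21. It is also the lowest member of a list of integrated stress response genes. Of that list 7 of 9 lay above 0 (median 0.05), beside 4068 of all 6765 genes.

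FOS, a subunit of the AP-1 factor, spread over about 4 units in either group. It ran from 9.34 through 11.40 to 13.28 in low animals and from 8.33 through 10.53 to 12.42 in high animals. The difference was -0.84 with an SE of 0.42 (95% interval -1.70 to 0.01, adjusted p = 0.977), and 6 of 19 high animals lay above the low median. EGR1, a zinc finger factor of the same rapid response, ran from 7.16 through 8.73 to 11.11 in low and from 6.59 through 8.05 to 10.42 in high animals. Its difference was -0.61 ± 0.34, and its other probe sets gave -0.57 ± 0.31 and -0.38 ± 0.31.

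DUSP1, a phosphatase that switches off stress kinases, was tight in low animals and broad in high ones. The values were 11.17, 11.77 and 12.56 in the low group and 9.72, 11.26 and 12.32 in the high group, with SDs of 0.389 and 0.770. Its difference was -0.61 ± 0.22, and 13 of 19 high animals lay below the low median. CXCL2, a chemokine that attracts neutrophils, ran from 6.65 through 7.38 to 8.40 in low and from 5.94 through 7.09 to 7.89 in high animals, a difference of -0.41 ± 0.19. It belongs to another list, of chemokines and inflammatory feedback genes, in which 6 lay above and 9 below 0 (median -0.01). ATF3, a stress-induced repressor, differed by -0.42 ± 0.24. Among the others on the immediate early list with an unadjusted p under 0.05, KLF4 differed by -0.50 ± 0.22, FOSL2 by -0.49 ± 0.23 and SGK1 by -0.31 ± 0.14. JUN was near level at -0.06 ± 0.21, MCL1 differed by -0.01 ± 0.10, and SOCS3, the single member above 0, by 0.08 ± 0.08.

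**Figure D2:**
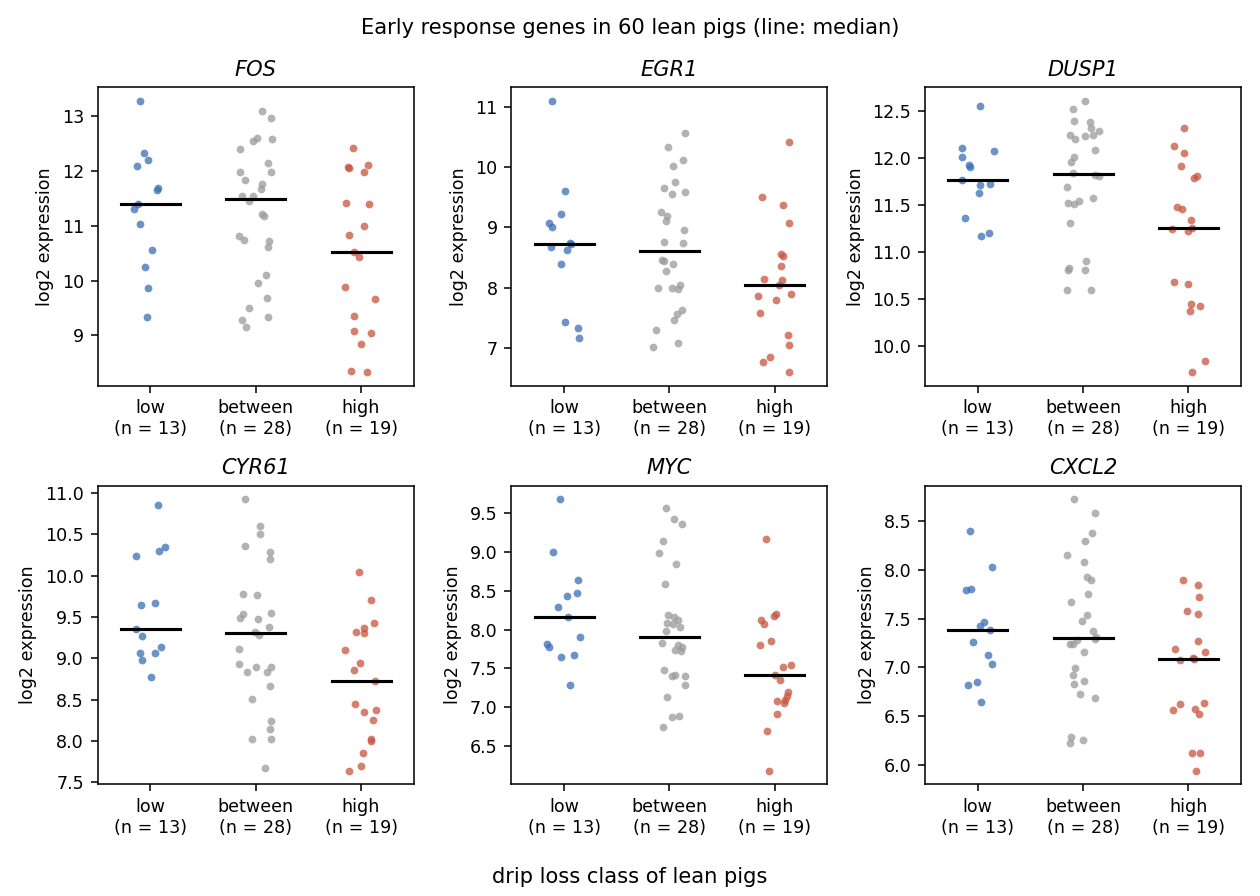
Log2 expression (vertical axes) of 6 early response genes in each lean pig, by drip loss class (horizontal axes: 13 low, 28 between the bounds, 19 high). Points are animals and lines are medians; in each panel the high class has the lowest median and the classes overlap.

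The estimated early gene differences varied with the fat area bound and between blocks of title numbers, and these changes were not tested. With a bound of 12.0 cm2, which left 6 low and 14 high pigs, the list median was -0.11, FOS differed by -0.17, EGR1 by -0.01 and MYC by -0.41. With a bound of 14.0 cm2 (23 low, 25 high), FOS differed by -1.21, and CYR61, at -1.02, was the 1 probe set that passed (adjusted p = 0.0175). That bound takes in pigs counted as fatter elsewhere in this report. In the fatter class CYR61 passed by itself, with a difference of -1.02 (limma, adjusted p = 0.0014). The labels explain no meaning of the title numbers. Of the blocks of 100 numbers, 5 held both groups, and the list mean was lower in high animals in 3 of them, with within-block differences from -0.96 to 0.66. FOS was lower in 3 of 5 blocks (-3.60 to 2.25), CYR61 in 3 of 5 (-1.83 to 0.51), DUSP1 in 3 of 5 (-1.61 to 0.64) and MYC in 4 of 5 (-1.31 to 0.66). Each such value rests on 1 to 3 animals a group.

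The lowest p-values among named genes belonged to 2 RNA-processing genes and a gene without a proper name. SRSF5, an SR protein that guides exon choice in splicing, ran from 8.23 through 9.06 to 9.67 in low animals and from 7.97 through 8.49 to 9.19 in high animals. Its difference was -0.55 ± 0.13, or 0.682 times (adjusted p = 0.410), and 18 of 19 high animals lay below the low median. It was lower in 5 of 5 blocks of title numbers (-0.97 to -0.42), each with 1 to 3 animals a group. SRSF5 was picked on these same animals, which favours both counts, so they are no independent evidence. SON, a scaffold of nuclear speckles where splicing factors gather, ran from 6.41 through 6.89 to 7.13 in low and from 5.99 through 6.47 to 6.99 in high animals. This probe set gave -0.36 ± 0.08 (adjusted p = 0.410), whereas the brightest SON probe set gave 0.00 ± 0.11 and the other SON probe sets -0.06 ± 0.09 and 0.14 ± 0.15. LOC100513863 differed by -0.48 ± 0.11 (adjusted p = 0.410).

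RBBP6, a ubiquitin ligase that binds p53 and RB, showed a like disagreement between probe sets. The one named by rule gave -0.32 ± 0.09, and its other probe sets 0.05 ± 0.09 and 0.31 ± 0.14. SMAD3, which carries the TGF-beta and myostatin signal to the nucleus, ran from 5.88 through 6.78 to 7.19 in low and from 5.84 through 6.26 to 6.74 in high animals. All 19 high animals lay below the low median, for a difference of -0.39 ± 0.11 (adjusted p = 0.942). SMAD3 was picked for its low t in these same animals, which favours such a split. With the bound of 12.0 cm2 the SMAD3 difference was -0.18, and without the 4 arrays with liver gene signal it was -0.31 ± 0.11. The rest of the 12 leading lower genes were SLC9A3R2, a membrane scaffold (-0.29 ± 0.09), DDR1, a collagen receptor (-0.32 ± 0.10), B3GNT3, a glycosyltransferase (-0.32 ± 0.10), and NREP (-0.28 ± 0.09).

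Among the leading genes in the other direction, differences ran from 0.16 to 0.42. These genes too were picked on the same animals, which favours a clear split between the groups. TMX3, a disulfide isomerase of the endoplasmic reticulum, ran from 5.47 through 5.92 to 6.25 in low animals and from 5.73 through 6.17 to 6.44 in high animals. Its difference was 0.28 ± 0.07, or 1.21 times (adjusted p = 0.496), with 18 of 19 high animals above the low median, while a second, brighter TMX3 probe set gave 0.10 ± 0.09. FTL, the light chain of the iron store ferritin, ran from 12.57 through 12.88 to 13.18 in low and from 12.86 through 13.11 to 13.45 in high animals, a difference of 0.22 ± 0.06. A dimmer FTL probe set gave 0.06 ± 0.12. RPUSD3, which modifies mitochondrial RNA, ran from 6.33 through 7.01 to 7.76 in low and from 6.89 through 7.34 to 7.61 in high animals. Its difference was 0.31 ± 0.09 (adjusted p = 0.977), and 0.42 ± 0.08 without the 4 arrays with liver gene signal (adjusted p = 0.184).

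Other leading genes in this direction included MRPL39, of the mitochondrial ribosome (0.29 ± 0.09), and ABHD10, a mitochondrial thioesterase (0.25 ± 0.08). HACD3, of very long chain fatty acid elongation, differed by 0.27 ± 0.08, SNRNP35, of the minor spliceosome, by 0.29 ± 0.10, and LOC100512926 by 0.42 ± 0.13. DFFA, the inhibitor of the apoptotic nuclease, differed by 0.16 ± 0.05, and the DNA repair genes INIP and SLX1A by 0.18 ± 0.06 and 0.21 ± 0.07. Brighter probe sets gave 0.09 ± 0.09 for DFFA and 0.10 ± 0.08 for INIP. TMEM68 differed by 0.24 ± 0.08, and by -0.08 ± 0.11 on a dimmer probe set. All of these had an adjusted p of 0.977.

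**Figure D3:**
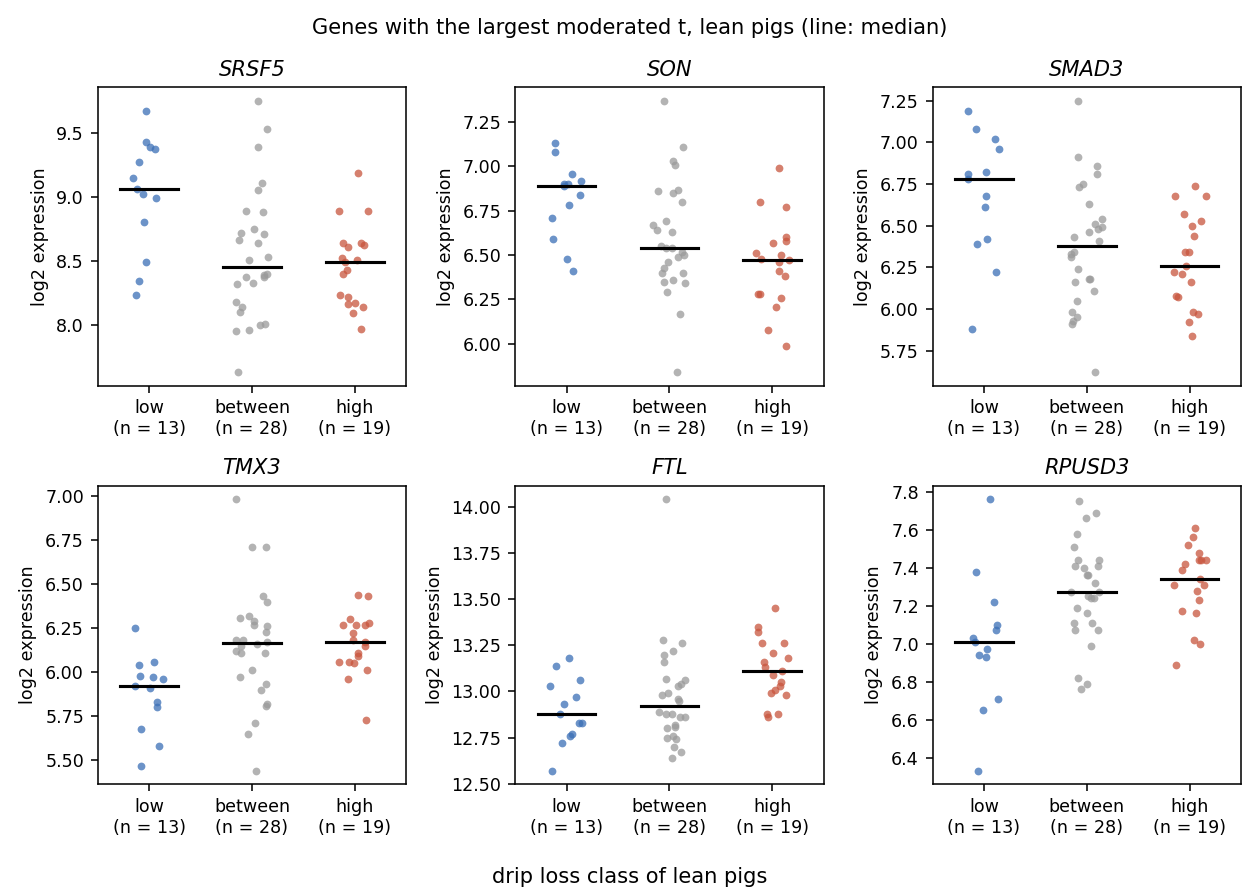
Log2 expression (vertical axes) of 6 genes with large moderated t in each lean pig, by drip loss class (horizontal axes: 13 low, 28 between the bounds, 19 high). Points are animals and lines are medians. All 19 high animals lie below the low median of SMAD3, and 18 of 19 lie below that of SRSF5 and SON. The genes were ranked on these animals, which favours such splits.

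Probe sets without a gene symbol were also among those with the lowest adjusted p of 0.410. One of them ran from 9.08 through 9.73 to 10.27 in low and from 8.14 through 8.88 to 9.80 in high animals, a difference of -0.75 ± 0.16. Another ran from 7.43 through 8.06 to 8.91 and from 6.46 through 7.45 to 8.46, a difference of -0.76 ± 0.17. The groups overlapped in both.

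**Figure D4:**
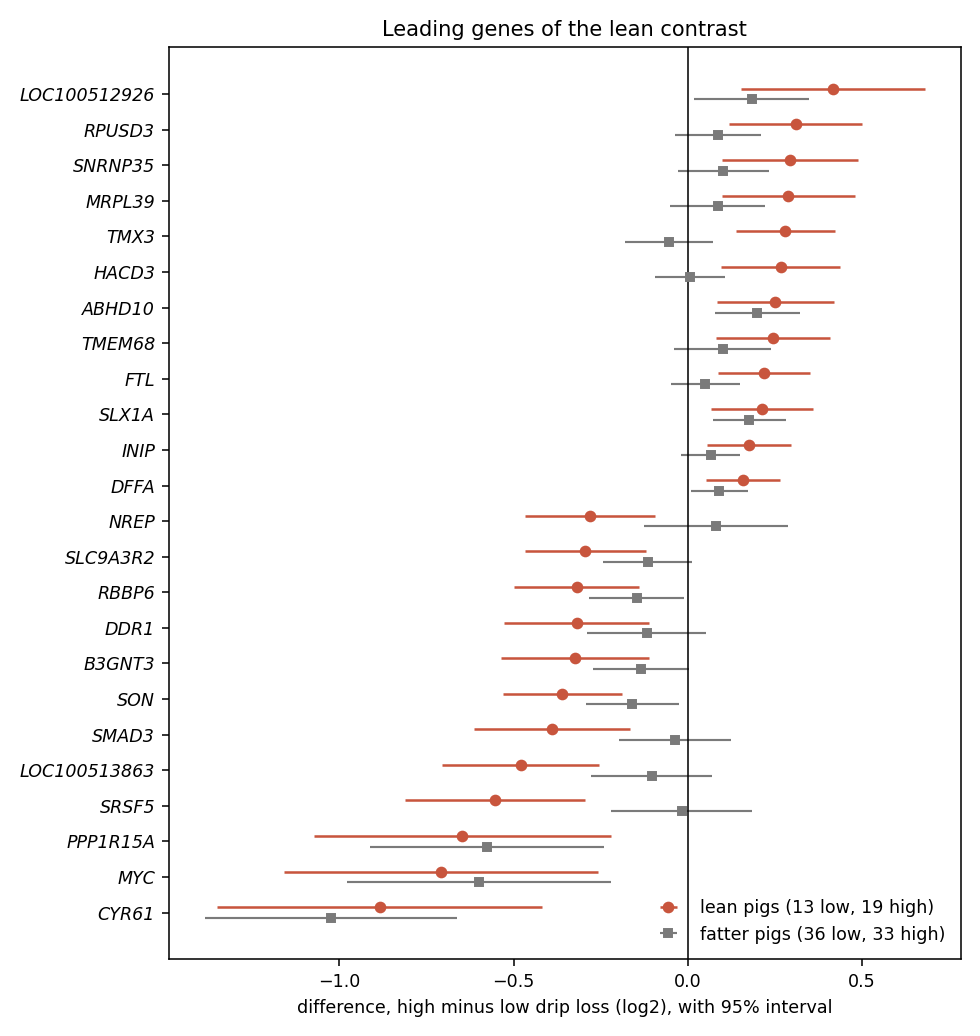
Difference in log2 expression, high minus low drip loss, with its 95% interval (horizontal axis) for the 24 leading genes of the lean contrast (vertical axis). Circles are lean pigs (13 low, 19 high) and squares fatter pigs (36 low, 33 high); the genes were ranked on the lean values, so the lean intervals exclude 0 by choice, while CYR61, MYC and PPP1R15A lie at similar values in both.

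Genes of the respiratory chain and the ATP synthase lay slightly higher with high drip loss, by amounts near their errors. Of complex I, which passes electrons from NADH, 33 of 38 listed subunits were measured and 31 lay above 0, with a median of 0.07. Per animal, the complex I mean ran from 11.01 through 11.29 to 11.37 in the low group. In the high group it ran from 10.97 through 11.34 to 11.60, so the groups overlapped. All 13 measured subunits of complexes II to IV lay above 0 (median 0.07), as did 15 of 16 of the ATP synthase (median 0.08). At an unadjusted p under 0.05 there were 0 in each of these lists, beside 2.62% of all genes on the higher side, and 39.9% of all genes lay below 0. Without the 4 arrays with liver gene signal, 0 of complex I, 1 of complexes II to IV and 2 of the ATP synthase had such a p, all higher. NDUFB2 ran from 11.11 through 11.88 to 12.15 in low and from 11.45 through 11.97 to 12.44 in high animals, a difference of 0.14 ± 0.09. ATP5I differed by 0.13 ± 0.09, NDUFA8 by 0.11 ± 0.09, COX7A2 by 0.14 ± 0.07 and the mitochondrial protease LONP1 by 0.08 ± 0.06. Of TCA cycle and pyruvate dehydrogenase genes 12 of 19 lay above 0. Their median was 0.06, and 0.02 without the 4 arrays with liver gene signal. Fatty acid oxidation (17 of 32 above 0, median 0.01) and glycolysis and glycogen metabolism (16 of 32, median 0.00) were evenly split.

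PPARGC1A, the coactivator that drives mitochondrial gene expression, varied widely. It ran from 6.66 through 8.21 to 10.67 in low animals and from 5.96 through 7.82 to 10.50 in high animals. The difference of -0.15 ± 0.42 was far smaller than that spread, with 10 of 19 high animals below the low median. PDK4, a kinase that inhibits the pyruvate dehydrogenase complex, differed by -0.08 ± 0.18.

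Proteasome and cytosolic ribosomal protein genes lay mostly slightly above 0 too. Ubiquitin ligases and autophagy genes did so in 10 of 17, with a median of 0.01 against 0.02 over all genes. Of 36 measured proteasome subunits 34 lay above 0 (median 0.08), and of 58 cytosolic ribosomal proteins 53 (median 0.05), beside 4068 of all 6765 genes. RPL30, 1 of the 5 ribosomal proteins below 0 and the one with an unadjusted p under 0.05, averaged 4.82 in low and 4.57 in high animals, close to the floor (-0.25 ± 0.08). FBXO32, the muscle atrophy ubiquitin ligase also called atrogin-1, ran from 7.26 through 8.02 to 9.84 in low and from 7.90 through 8.91 to 10.36 in high animals on one probe set. That probe set gave 0.55 ± 0.27 and a brighter one 0.41 ± 0.25 (both adjusted p = 0.977). The brighter one had the highest difference on the list of ubiquitin ligases and autophagy genes. Among calpain, cathepsin and caspase genes, 11 of 15 lay above 0 with a median of 0.04. The lysosomal protease CTSD differed by 0.19 ± 0.07, CASP6 by 0.22 ± 0.11 and the cathepsin inhibitor CST3 by -0.22 ± 0.08. CAST, the calpain inhibitor, differed by 0.02 ± 0.05, with a 95% interval from -0.10 to 0.13.

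Genes long tied to pork water-holding had differences from -0.13 to 0.17. RYR1 ran from 12.46 through 12.82 to 13.22 in low and from 12.29 through 12.63 to 13.16 in high animals, a difference of -0.13 ± 0.08. PRKAG3 ran from 5.44 through 5.94 to 6.50 in low and from 5.87 through 6.11 to 6.54 in high animals, a difference of 0.17 ± 0.08 (95% interval -0.00 to 0.34, adjusted p = 0.977). PYGM, the muscle glycogen phosphorylase, differed by -0.00 ± 0.04. These values concern transcript level only, since the arrays did not genotype the animals.

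Fibre type genes had narrow intervals. MYH7, the slow myosin heavy chain, differed by -0.06 ± 0.05, with an interval from -0.16 to 0.03. Medians were 0.00 over 9 fast fibre genes and -0.02 over 12 slow fibre genes, of which 9 lay below 0, beside 2697 of all 6765 genes. The fast fibre probe sets and MYH7 read near the top of the scale, with a mean over the fast fibre genes of 13.76 to 13.85 in low and 13.74 to 13.85 in high animals. Calcium handling genes split 7 above and 6 below 0, with CALM2, calmodulin, at 0.19 ± 0.08 and RYR3, a minor release channel, at 0.15 ± 0.06. Water and ion transport genes lay above 0 in 6 of 8 (median 0.05; 8 of 8 and 0.10 without the 4 arrays with liver gene signal), and the aquaporin gene AQP4 had no probe set with a single symbol.

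Heat shock chaperones lay on both sides, 15 above and 14 below 0 (median 0.03), while 4068 of all 6765 genes lay above 0 and 2697 below. HSF2, a heat shock transcription factor, differed by -0.35 ± 0.16 and HSPB6, a small muscle chaperone, by -0.34 ± 0.17. DNAJA1, an HSP70 cochaperone, differed by 0.29 ± 0.19, BAG3 by -0.06 ± 0.13 and HSPH1 by 0.12 ± 0.23. Hypoxia genes split 8 and 6, with ADM, the vasodilator adrenomedullin, at -0.33 ± 0.15, SLC2A1, a glucose carrier, at -0.22 ± 0.10 and HIF1A at -0.08 ± 0.13. In the circadian list 6 of 8 lay below 0 (median -0.12), with PER1 at -0.17 ± 0.15 and NFIL3 at -0.07 ± 0.28. With a fat area bound of 12.0 cm2 the median of the circadian clock genes was 0.05. Antioxidant genes lay above 0 in 15 of 21 (median 0.10), and NQO1, a quinone reductase, at 0.26 ± 0.12, was the member with an unadjusted p under 0.05. XIRP1, a costamere protein of stressed muscle, differed by -0.28 ± 0.19.

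Lipid and interferon genes lay mostly below 0 with wide errors. Of 13 genes of fatty acid and triglyceride synthesis 11 lay below 0 (median -0.10), beside 2697 of all 6765 genes. SCD, which desaturates fatty acids, ran from 8.55 through 9.57 to 11.49 in low and from 7.22 through 9.29 to 10.80 in high animals, a difference of -0.42 ± 0.32. FASN, fatty acid synthase, differed by -0.29 ± 0.25. Interferon response genes lay below 0 in 15 of 17 (median -0.07), with ISG15 at -0.54 ± 0.42. The median of the interferon response genes was -0.46 with a fat area bound of 12.0 cm2 and 0.01 with one of 14.0 cm2. The mean over that list reached 8.86 in one low and 8.77 in one high animal, against medians of 6.83 and 6.74. Of extracellular matrix genes 13 of 23 lay below 0 (median -0.03), with COL3A1, a fibrillar collagen, at -0.19 ± 0.09 and LAMC1, a basement membrane laminin, at -0.15 ± 0.07.

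Markers of other cell types give a view of tissue make-up, although in bulk muscle fewer cells of a type and less RNA per cell cannot be told apart. The counts below stand beside 4068 of all 6765 genes above 0 and 2697 below. Adipocyte markers lay below 0 in 11 of 13 (median -0.06), and their mean spanned 7.47 to 8.30 in the low and 7.38 to 8.05 in the high group. FABP4, the adipocyte fatty acid carrier, differed by -0.05 ± 0.21 and ADIPOQ, adiponectin, by -0.17 ± 0.17. Endothelial markers lay above 0 in 7 of 12 (median 0.04), with CLDN5, a tight junction protein, at 0.42 ± 0.16 and ERG at 0.25 ± 0.10. PECAM1 differed by 0.10 ± 0.11 and CDH5 by -0.10 ± 0.09. Macrophage markers had a median of 0.04 with 7 of 10 above 0, and of 0.13 without the 4 arrays with liver gene signal. Lymphocyte markers had a median of 0.02 with 7 of 11, blood cell markers 0.05 with 4 of 7, nerve and Schwann cell markers 0.08 with 5 of 5, and satellite cell and myogenic markers 0.00 with 4 of 10. The part of these cell types in the other differences was not tested.

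**Figure D5:**
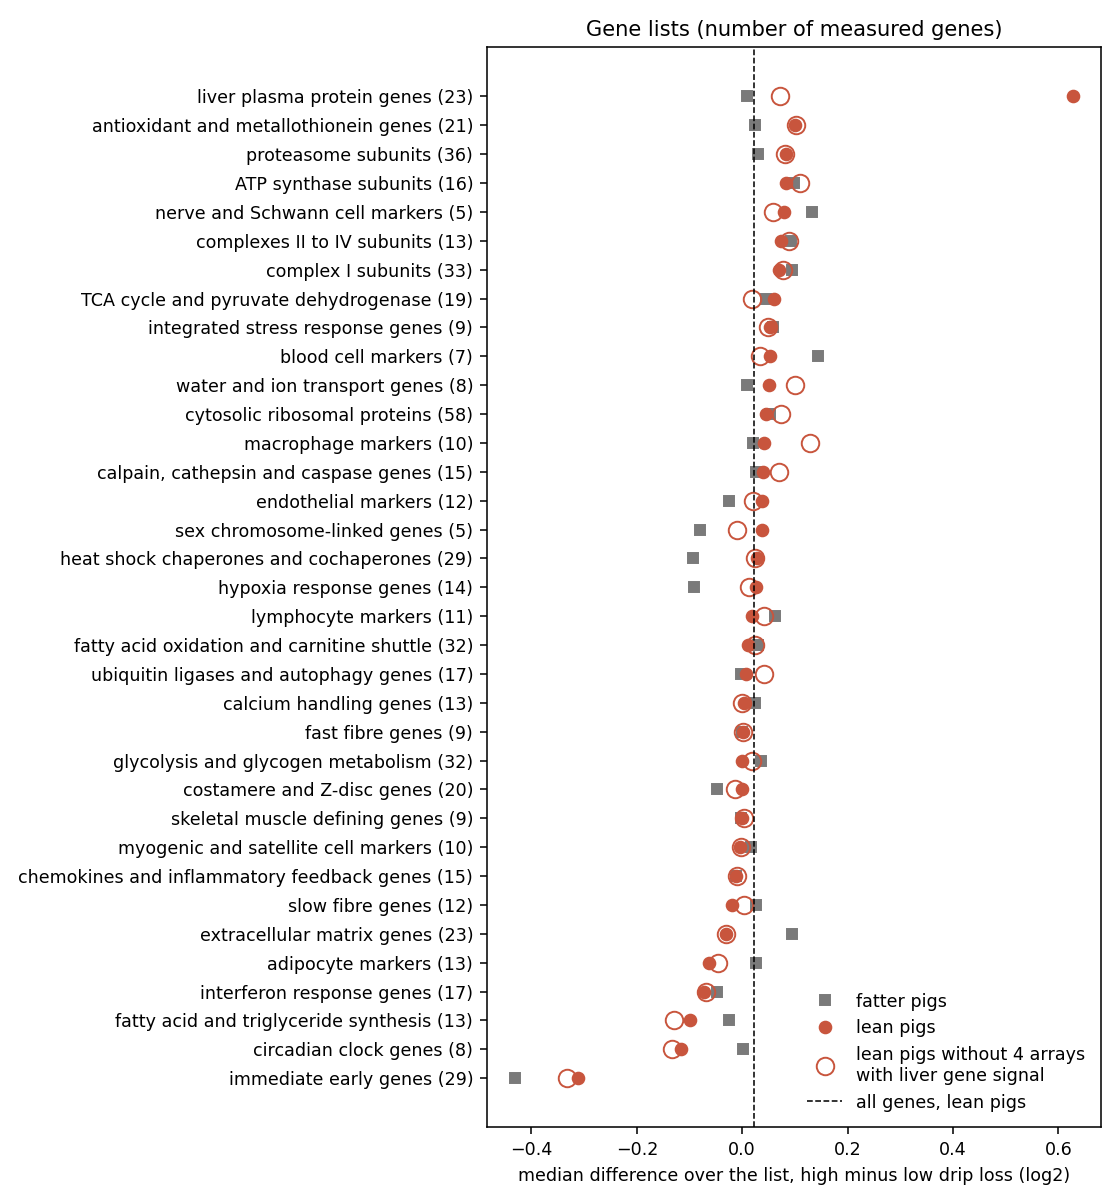
Median difference in log2 expression, high minus low drip loss (horizontal axis), over each of 35 gene lists (vertical axis, measured genes in parentheses). Filled circles are lean pigs, squares fatter pigs, and open circles lean pigs without the 4 arrays with liver gene signal; the dashed line is the median of all genes in lean pigs. The immediate early genes stand lowest at -0.31, and the liver list moves from 0.63 to 0.07.

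A regression over all 60 lean pigs used the drip loss values themselves and the 28 animals left out above. Again 0 of 23935 probe sets passed (lowest adjusted p 0.233), and 1149 had an unadjusted p under 0.05 (4.80%). Without the 5 lean arrays with liver gene signal, 0 passed and 1271 had an unadjusted p under 0.05. MYC had a slope of -0.15 ± 0.04 per percentage point of drip loss (adjusted p = 0.414), CYR61 one of -0.16 ± 0.04 (adjusted p = 0.414), FOS -0.20 ± 0.06 (adjusted p = 0.895) and DUSP1 -0.12 ± 0.03 (adjusted p = 0.793). The animals between the bounds did not fall midway for each of these genes. FOS had a median of 11.49 in them and 11.40 in low animals, and DUSP1 11.83 and 11.77, while for MYC the median was 7.91 against 8.16 in low and 7.42 in high animals. SRSF5 had medians of 9.06, 8.46 and 8.49 in low, intermediate and high animals, so its intermediate animals lay near the high ones.

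Fatter pigs, with a fat area above 13.0 cm2 and the same drip loss bounds, share no animal with the lean groups. The contrast of 33 high against 36 low fatter pigs called 30 of 23935 probe sets (0.125%), 7 higher and 23 lower, with larger groups and a median SE of 0.0590 against 0.0849 in lean pigs. In lean pigs 28 of these 30 had the same sign, beside 58.6% of all probe sets, and 9 had an unadjusted p under 0.05, beside 4.49% of all. The lean value lay closer to 0 in 28. Their median size was 0.41 in fatter pigs, where they were picked, and 0.21 in the same direction in lean pigs. For 18 of the 30, the fatter value lay inside the lean 95% interval. UNC93B1, a carrier of Toll-like receptors, differed by 0.27 in lean and 0.26 in fatter pigs, and RPL30 by -0.25 and -0.27.

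A test of the difference between the lean and the fatter contrast called 0 of 23935 probe sets (lowest adjusted p 1.000), with 747 at an unadjusted p under 0.05 (3.12%). The test was again limma's, and its median SE was 0.106. Among the early genes, the FOS difference was -0.84 in lean and -1.44 in fatter pigs, and the lean value minus the fatter one was 0.60 (95% interval -0.37 to 1.58). For CYR61 it was 0.14 (-0.49 to 0.77), for MYC -0.11 (-0.76 to 0.54) and for DUSP1 0.18 (-0.29 to 0.66). CXCL2, with -0.41 in lean and -1.02 in fatter pigs, gave 0.61 (0.16 to 1.06, unadjusted p = 0.0078, adjusted p = 1.000). PPARGC1A, at -0.15 in lean and -1.09 in fatter pigs, gave 0.94 (-0.04 to 1.93).

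Genes ranked highest for that difference had near-zero or opposite values in fatter pigs. They were picked for a large gap between the contrasts, and this choice itself favours such values. The pattern is therefore no independent evidence of an effect limited to lean pigs, and no probe set passed the test of that difference. SRSF5 differed by -0.55 in lean and -0.02 ± 0.10 in fatter pigs, where the medians were 8.59 and 8.54, and the contrasts differed by -0.53 (-0.88 to -0.18, adjusted p = 1.000). TMX3 gave 0.28 in lean and -0.05 in fatter pigs, HACD3 0.27 and 0.01, CERS2, a ceramide synthase, 0.25 and -0.11, and IFNAR1, an interferon receptor chain, 0.22 and -0.14. FBXO32 gave 0.55 and -0.39. Other probe sets of these genes differed: the brightest of CERS2 gave 0.02 ± 0.09 in lean pigs, others of HACD3 gave -0.04, 0.04 and 0.17, and a second one of ASB3, named next, 0.12 ± 0.12. On the other side stood FKBP10, a collagen chaperone (-0.21 and 0.22), ITIH5 (-0.08 and 0.16), ASB3 (-0.10 and 0.10) and WFDC2 (-0.09 and 0.13). EIF1AY lay in its upper cluster in 17 of 36 low and 23 of 33 high fatter pigs. With the Y-linked signal as a covariate, 0 probe sets passed for the difference between the fat classes and 900 had an unadjusted p under 0.05.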

How the data were processed

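The authors deposited 1 log2 expression value per probe set and array, made with GCOS 1.1.1 and PLIER per the submitters' processing notes (scaling between arrays is not given in the sources used here). The deposited log2 values entered the fits without a further transformation. The file holds 24123 probe sets, of which 188 are controls; the other 23935 were tested, with 10069 carrying 1 gene symbol, 198 several and 13668 none in the array's annotation; for lists, the probe set with the highest mean stood for each of 6765 genes. Of the 207 animals, 8 had no fat area and entered no group. Differences came from limma 3.58.1 (lmFit, then eBayes; R 4.3.3) on the lean low and lean high arrays alone, two-sided, with Benjamini-Hochberg adjustment over all tested probe sets and a threshold of 0.05. The same was done for the slope on drip loss in all lean pigs, and for the difference of contrasts in 1 fit of 4 groups. Properties of arrays were compared by 100000 permutations. The p-values take animals as independent, since no litter or sire is known here.

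Named genes were the 12 probe sets with the largest moderated t in each direction, with 1 symbol and a mean above the median (6.10), the 5 largest in each direction for the difference between fat classes, up to 3 members of any list with a member that passed (there was none), and a fixed set of 32 genes, of which JUNB, NR4A1 and AQP4 had no probe set with 1 symbol. Other genes were named from the lists after their values were seen. The groups, genes and lists were chosen with earlier results of these data known, and the liver list and the omission of arrays with liver gene signal were added after seeing the data. The code was tested on simulated data with known differences. No sequences or coordinates were used.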

Additional observations from a re-analysis of the deposited data

How the results depend on the processing

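No paired analysis was possible because the animals were unrelated by any label and their replicate numbers only name them. The count of probe sets that passed was 0 for the lean contrast, its difference from fatter pigs and the slope under every alternative run, except 1 (CYR61) for the lean contrast with a fat area bound of 14.0 cm2. The alternatives were quantile normalization, bright probe sets only, normal scores, title number blocks or series, fat area, Y-linked signal, 3' to 5' control signal or 2 principal components as covariates, omission of low-correlation arrays, of arrays without spike-in signal or of those with liver gene signal (this one chosen after seeing the data), eBayes with trend and robust, other bounds (fatter pigs of at least 17.0 cm2 included), and a shared spread; gene lists were also taken over averaged probe sets per gene. With the 14.0 cm2 bound (23 low, 25 high) 1755 of 23935 probe sets, or 7.33%, had an unadjusted p under 0.05. With the main bound (13 low, 19 high) it was 4.49%. Leaving out each of the 32 animals in turn gave 0 in all fits and 931 to 1468 probe sets at an unadjusted p under 0.05, the highest without the first high animal.

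Signs were followed for the leading genes of the lean contrast and the fixed set. Genes named only for the difference between fat classes were not part of this count. Under these alternatives signs turned for 8 of the genes followed, whose differences lay between -0.17 and 0.12. Leaving out single animals turned 7, among them PDK4 (up to 0.024), BAG3 (up to 0.018) and FABP4 (up to 0.033), which no other alternative turned. The medians of 21 of the 35 lists took both signs. With title number blocks HSPH1 was -0.078, NFIL3 0.112, RYR1 0.0078 and PYGM 0.042. With a bound of 12.0 cm2 NFIL3 was 0.073, PER1 0.047 and NDUFA8 -0.0086; with 14.0 cm2 HSPH1 was -0.013 and PYGM 0.00017. With drip loss bounds of 3.0% and 8.0% PPARGC1A was 0.030, CAST -0.021 and PYGM 0.0018. Without low-correlation arrays HSPH1 was -0.014, with the 3' to 5' signal NFIL3 was 0.064, and without the arrays with liver gene signal PYGM was 0.0037. The causes were not tested.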

Other observations

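Arrays with high levels of liver plasma protein genes occurred in all drip loss and fat classes. The highest list mean of the series, 11.97, belonged to a fatter pig with an intermediate drip loss of 5.38%, in which ALB stood at 14.58, HP at 13.20 and TF, transferrin, at 13.07. The lean pig with the next highest mean, 11.81, had a drip loss of 7.28%, with ALB at 14.75 and TF at 12.78. Over the fatter classes, the bound of 2 units above the median array was passed by 4 of 36 low, 5 of 70 intermediate and 1 of 33 high animals, against 1 of 13, 1 of 28 and 3 of 19 in lean pigs. APOA1, an apolipoprotein of HDL, had a lowest value of 8.14 in the lean high group, where ALB reached down to the floor of 4.

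A probe set with no symbol in the annotation was among the 30 called in fatter pigs (limma), with a difference of 0.58 there and 0.65 in lean pigs (unadjusted p = 0.00035 in lean pigs). It was the largest positive value among those 30 in either fat class.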
